A study of Homo sapiens with 18 samples.

Results

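CALU and 9 other genes for calcium-binding EF-hand proteins were followed in pancreatic ductal adenocarcinoma cells after knockdown of the histone methyltransferase genes KMT2C or KMT2D. The 10 genes, of 63677 gene identifiers counted, were CALU, RCN1, RCN2, RCN3, SDF4, NUCB1, NUCB2, PDCD6, SRI and CAPN1. CALU and PDCD6 were chosen because their counts were higher with all 5 siRNAs, so their levels against control are given as a description without a test. The other 8 were chosen by family, as relatives of CALU in the secretory pathway or of PDCD6 in the cytosol. All 10 passed the filter on low counts.

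RNA sequencing of ribosome-depleted total RNA covered 18 libraries, 6 from each of the human lines SUIT2, COLO357 and PANC1. Each line gave 3 libraries with KMT2C siRNA (siRNA1, siRNA2 and siRNA3), 2 with KMT2D siRNA (siRNA1 and siRNA2) and 1 with a control siRNA, all harvested 48 h after transfection. The series asks how loss of either gene changes the whole transcriptome. Knockdown was partial and transient, the sources used here give no siRNA sequences, and no label says whether libraries of a line came from separate cultures. A p-value here therefore reflects only how these libraries spread, which may be technical.

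Library depth was 14205640 to 24869826 gene counts with KMT2C siRNA, 22280204 to 25632462 with KMT2D siRNA and 21244832 to 32115894 with control siRNA. With KMT2C siRNA, KMT2C mRNA averaged 68.6% ± 21.1 of its line's control (SD, n = 9), and KMT2D mRNA averaged 59.0% ± 20.8 with KMT2D siRNA (SD, n = 6). In the library labelled PANC1 KMT2C siRNA2, KMT2C mRNA stood at 116% of control. KMT2D mRNA stood at 79.9% and 84.7% with KMT2D siRNA1 and siRNA2 in PANC1. Across lines, neither target's drop against control was significant (edgeR adjusted p = 0.437 for KMT2C and 0.211 for KMT2D, unadjusted p = 0.0194 and 0.00975). By siRNA, the drop of KMT2C was significant with KMT2C siRNA1 (log2 -0.99, edgeR adjusted p = 0.0148). It was not with siRNA2 (-0.37, adjusted p = 0.34) or siRNA3 (-0.46, adjusted p = 0.422). KMT2D mRNA averaged 168% of control with KMT2C siRNA (above in 8 of 9 libraries, up to 372%). KMT2C mRNA averaged 142% with KMT2D siRNA (above in 4 of 6, up to 274%). With KMT2C siRNA against KMT2D siRNA, KMT2C mRNA was lower (log2 -1.01, edgeR adjusted p = 0.00505) and KMT2D mRNA higher (1.52, adjusted p = 0.00195). The part of the rises of the other target in these and other differences between the targets was not tested. The share of read pairs in no annotated feature was 17.2% ± 7.17 with KMT2C siRNA (n = 9), 11.1% ± 1.63 with KMT2D siRNA (n = 6) and 12.8% ± 4.72 with control siRNA (n = 3), and it passed 20% in 3 KMT2C libraries. All 6 ductal epithelial markers looked at (KRT7, KRT8, KRT18, KRT19, EPCAM and CDH1) were detected, with a summed level of 812 to 4801 CPM (gene counts scaled to a common library size) with KMT2C siRNA, 832 to 6557 CPM with KMT2D siRNA and 1143 to 6834 CPM with control siRNA. Of 6 leukocyte markers, PTPRC and CD3E did not pass 0.12 CPM in any library, of 5 endothelial markers PECAM1 was at 0, and of 6 fibroblast markers DCN did not pass 0.06 CPM while COL1A1 reached 179 CPM. The lines are cultured tumour cells, and bulk RNA cannot tell fewer cells carrying an mRNA from less of it per cell.

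EF-hands are helix-loop-helix motifs that bind calcium. Calumenin (CALU), the reticulocalbins (RCN1, RCN2 and RCN3) and Cab45 (SDF4) form the CREC family, proteins with several EF-hands of low affinity that reside in the lumen of the endoplasmic reticulum or Golgi and act in protein folding, modification and sorting. Calumenin is also secreted and restrains the vitamin K-dependent gamma-carboxylase. The nucleobindins (NUCB1 and NUCB2) are Golgi calcium binders, and NUCB2 is the precursor of the peptide nesfatin-1. PDCD6 (ALG-2), sorcin (SRI) and the large subunit of calpain-1 (CAPN1) belong to the penta-EF-hand family and are mainly cytosolic: PDCD6 recruits partners such as SEC31A at ER exit sites and ALIX at membranes, sorcin binds ryanodine receptors, and calpain-1 is a calcium-activated protease. The label of ER proteins therefore does not cover these last 3, and it is loose for the 7 secretory-pathway members, some of which are Golgi proteins.

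Promoter sequences of the members are shown because several of them share a short motif while their mRNA levels did not move together. The promoters, 250 bases before to 50 bases after each start, came from RefSeq on the GRCh38.p14 build, and all 10 members matched, with 14 promoters. GACGTGG, the core of the unfolded protein response element bound by ATF6 and XBP1, was found on either strand in 5 of the members' 14 promoters (35.7%), each of another gene, against 3.13% of all 35116 promoters of the same length. Counted per gene, 5 of 10 members had it in at least 1 promoter, against 3.82% of 27305 genes. The motif was chosen after these sequences had been seen. Windows of 30 bases around it, on the gene's strand, are given with the motif in capitals (for NUCB2 the capitals are its reverse complement, CCACGTC).
CALU, chr7:128739191-128739220: gcggtcccgggGACGTGGcgctttccagcc
RCN1, chr11:32090920-32090949: ccccagctggcGACGTGGctccgcggcccc
RCN3, chr19:49527853-49527882: tttcctttgtgGACGTGGcgaggagtgccc
NUCB1, chr19:48900206-48900235: cggggccgctgGACGTGGatgaaagctaca
NUCB2, chr11:17276520-17276549: atctcagagcgCCACGTCcctcctggctca

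The motif lay between 157 and 151 bases before the start in CALU, and the nearest to a start was in NUCB1, at 95 to 89 bases. Of the 2 genes chosen for their higher counts, CALU carried GACGTGG in this window and PDCD6 did not. Also searched on both strands were TGACGTGG, which contains GACGTGG and occurs in 0.729% of promoters, the full ER stress element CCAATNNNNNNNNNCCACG, which occurs in 0.0769%, and the cyclic AMP response element TGACGTCA, which occurs in 1.85%. None of these was in a member's window. A match of letters is a description and not evidence that a factor binds.

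CALU mRNA (ENSG00000128595, chromosome 7) was above the same line's control in 15 of 15 libraries. In SUIT2, CALU stood at 381, 484 and 396 CPM with KMT2C siRNA1, siRNA2 and siRNA3 and at 422 and 383 CPM with KMT2D siRNA1 and siRNA2, against 118 CPM with control siRNA. In COLO357 it stood at 443, 487 and 399 CPM with the 3 KMT2C siRNAs and at 469 and 349.7 CPM with the 2 KMT2D siRNAs, against 181 CPM with control siRNA. In PANC1 it stood at 489.9, 562 and 538 CPM with the KMT2C siRNAs and at 526 and 394 CPM with the KMT2D siRNAs, against 224 CPM with control siRNA. Every siRNA library was therefore above every control library, also across lines, since the lowest siRNA value (349.7 CPM, COLO357 KMT2D siRNA2) exceeded the highest control value (224 CPM, PANC1).

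Across lines, the fitted log2 difference of CALU was 1.44 with KMT2C siRNA (SE 0.16, 2.71-fold) and 1.31 with KMT2D siRNA (SE 0.16, 2.48-fold). By siRNA it was 1.35, 1.58 and 1.37 with KMT2C siRNA1, siRNA2 and siRNA3, and 1.46 and 1.14 with KMT2D siRNA1 and siRNA2. By line, the KMT2C difference was 1.83 in SUIT2, 1.29 in COLO357 and 1.24 in PANC1, and the KMT2D difference was 1.77, 1.18 and 1.04 in the same lines. All these values share the 3 control libraries, 1 per line. The SUIT2 control had the lowest CALU level of the 3 controls, while the siRNA libraries of the lines overlapped. Among all 21028 genes tested, 1.36% were above control in all 15 libraries and 0.785% were below it in all 15.

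PDCD6 (ENSG00000249915, chromosome 5) was the other gene chosen for this pattern. In SUIT2 it stood at 121, 104 and 131 CPM with KMT2C siRNA1, siRNA2 and siRNA3 and at 169 and 88.9 CPM with KMT2D siRNA1 and siRNA2, against 34.9 CPM with control siRNA. In COLO357 it stood at 284, 285 and 237 CPM with the KMT2C siRNAs and at 259 and 252 CPM with the KMT2D siRNAs, against 116 CPM with control siRNA. In PANC1 it stood at 82.3, 102 and 83.3 CPM with the KMT2C siRNAs and at 101 and 53.8 CPM with the KMT2D siRNAs, against 32.0 CPM with control siRNA. Each siRNA library was above its own control in 15 of 15 cases, but across lines the levels overlapped: the PANC1 siRNA libraries all lay below the COLO357 control, and the SUIT2 ones lay on both sides of it. The fitted log2 difference was 1.47 with KMT2C siRNA (SE 0.21, 2.77-fold) and 1.42 with KMT2D siRNA (SE 0.22, 2.68-fold).

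PDCD6 shares sequence with AHRR, the gene of the aryl hydrocarbon receptor repressor, which lies on the same strand. In GENCODE v29 the 2 genes have 244 exonic nucleotides in common, 2.57% of the exonic length of PDCD6. AHRR was also above control in 15 of 15 libraries. It had 75.8 to 90.7 CPM with KMT2C siRNA, 86.9 and 87.5 CPM with KMT2D siRNA and 43.7 CPM with control siRNA in SUIT2, but in COLO357 only 1.00 to 2.88 CPM with KMT2C siRNA, 1.27 and 1.33 CPM with KMT2D siRNA and 0.612 CPM with control siRNA. In COLO357, where AHRR was lowest, PDCD6 was highest. The part of AHRR in the PDCD6 counts of the other lines was not tested.

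**Figure D1:**
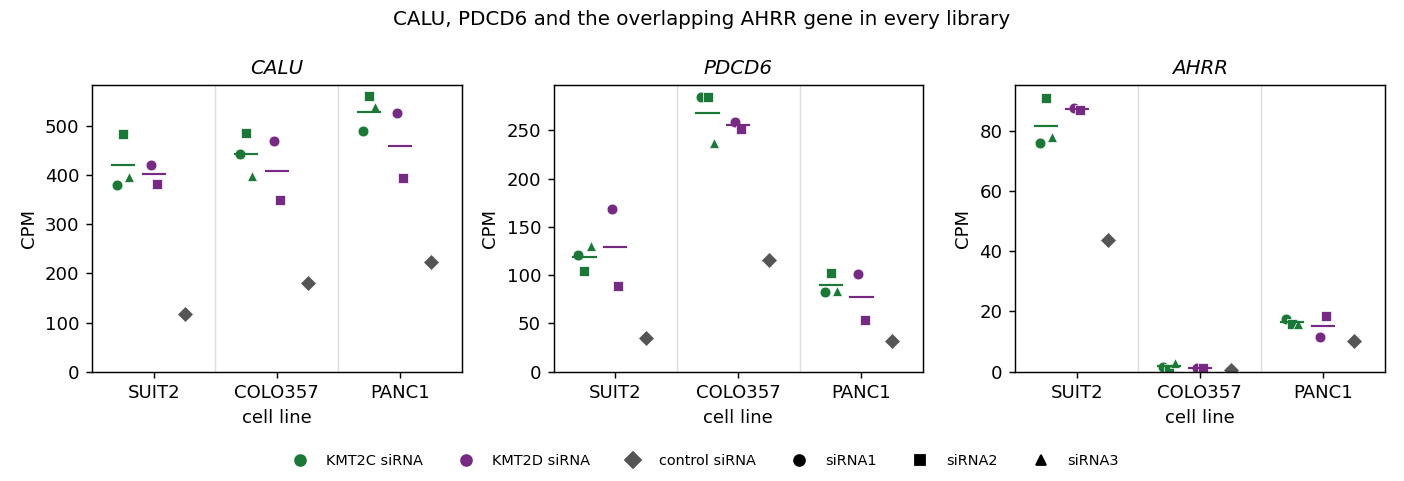
CPM of CALU, PDCD6 and AHRR (y axes) in every library by cell line (x axes), with KMT2C siRNA, KMT2D siRNA and control siRNA from left to right in each line. Symbols give the siRNA and horizontal lines the mean of a target's libraries. CALU with siRNA lies between 349.7 and 562 CPM in all lines, above the controls at 118 to 224 CPM.

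The siRNAs of one target were set against each other, a comparison that was added after the levels had been seen. It is not taken against control, though the control libraries were part of the fit. Over the 10 members and 4 such pairs, 3 of 40 tests passed a Benjamini-Hochberg adjusted p of 0.05 in edgeR ("called" from here on), against 4.83% of all such tests over all genes. 8 of the 40 had an unadjusted p under 0.05, a looser threshold to which the 4.83% does not apply. PDCD6 was 1.55-fold higher with KMT2D siRNA1 than with KMT2D siRNA2 (log2 0.63, SE 0.18, edgeR adjusted p = 0.0259). Its levels with siRNA1 exceeded those with siRNA2 in all 3 lines, by the least in COLO357 (259 against 252 CPM). For CALU the same pair gave a log2 difference of 0.32 (95% interval 0.01 to 0.63, edgeR adjusted p = 0.189), which did not pass the threshold.

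Sorcin mRNA (SRI, ENSG00000075142, chromosome 7) went the other way between the same 2 siRNAs. It stood at 58.8, 86.6 and 43.3 CPM with KMT2D siRNA1 in SUIT2, COLO357 and PANC1, against 123, 111 and 52.0 CPM with KMT2D siRNA2. SRI was lower with siRNA1 in each line, with a log2 difference of -0.58 (SE 0.16, edgeR adjusted p = 0.0221). Of all genes, 11.3% were called between these 2 siRNAs.

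NUCB1 (ENSG00000104805, chromosome 19) differed between 2 KMT2C siRNAs. It stood at 32.4, 65.2 and 37.2 CPM with siRNA2 in SUIT2, COLO357 and PANC1, against 20.1, 27.6 and 28.9 CPM with siRNA3. The widest gap was in COLO357, where the siRNA3 library also had the highest share of read pairs in no annotated feature (30.4%), a share whose part was not tested. The log2 difference was 0.76 (SE 0.18, edgeR adjusted p = 0.0213), against 2.73% of all genes called between these 2 siRNAs. Without the SUIT2 line none of the 3 differences was called, and without the PANC1 line only that of NUCB1 was (1 of 40). Without the COLO357 line, and without the 3 libraries above 20% of read pairs in no feature, those of PDCD6 and SRI were called and that of NUCB1 was not.

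The other 8 members were then compared with control. None of 8 was called with KMT2C siRNA and none of 8 with KMT2D siRNA, against 0.281% and 1.2% of all genes. By DESeq2, 0 of 8 were called in each. At an unadjusted p under 0.05, to which the shares of all genes given above do not apply, 1 of 8 passed in each comparison. With KMT2C siRNA it was RCN1 (log2 -0.41, SE 0.16, edgeR adjusted p = 0.408), and with KMT2D siRNA it was RCN3 (log2 0.77, SE 0.28, edgeR adjusted p = 0.23). 

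RCN2 (ENSG00000117906, chromosome 15), a reticulocalbin of the ER, lay with KMT2C siRNA at 61.9% to 123% of its line's control (median 87.8%, n = 9) and at 70.2% to 138% with KMT2D siRNA (median 98.6%, n = 6). Its log2 difference was -0.14 with KMT2C siRNA (95% interval -0.45 to 0.16) and 0.01 with KMT2D siRNA (-0.32 to 0.34). All 5 siRNA libraries of SUIT2 were above their control and all 5 of COLO357 below theirs, while PANC1 held both signs. Each line's side is set by a single control library, and the difference of effects between lines was not called for RCN2.

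Cab45, encoded by SDF4 (ENSG00000078808, chromosome 1), sorts secretory cargo in the Golgi. SDF4 was below control in 8 of 9 KMT2C libraries (74.4% to 129%, median 93.6%) and above it in 4 of 6 KMT2D libraries (89.7% to 125%, median 109%). Its log2 difference was -0.12 with KMT2C siRNA (95% interval -0.41 to 0.18) and 0.11 with KMT2D siRNA (-0.20 to 0.42).

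Nucleobindin mRNAs lay on both sides of control. NUCB1 ran from 62.3% to 147% of control with KMT2C siRNA (median 107%) and from 84.4% to 129% with KMT2D siRNA (median 111%), with intervals of the log2 difference of -0.32 to 0.53 and -0.31 to 0.60. NUCB2 (ENSG00000070081, chromosome 11) ran from 54.7% to 125% with KMT2C siRNA (median 91.3%) and from 72.7% to 205% with KMT2D siRNA (median 96.7%), with intervals of -0.64 to 0.25 and -0.41 to 0.56. The 205% was the SUIT2 KMT2D siRNA2 library, at 284 CPM against 138 CPM with control siRNA.

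Of the cytosolic members, SRI was below control in 7 of 9 KMT2C libraries and 4 of 6 KMT2D libraries, with log2 differences of -0.15 (95% interval -0.51 to 0.21) and 0.04 (-0.35 to 0.43). CAPN1 (ENSG00000014216, chromosome 11) had log2 differences of 0.11 with KMT2C siRNA (95% interval -0.26 to 0.47) and 0.13 with KMT2D siRNA (-0.26 to 0.52). In PANC1, CAPN1 was above control in all 5 siRNA libraries, at 147, 169 and 144 CPM with KMT2C siRNA and 136 and 175 CPM with KMT2D siRNA, against 105 CPM with control siRNA. In COLO357 it was below control with siRNA1 and siRNA3 of KMT2C and siRNA1 of KMT2D and above it with siRNA2 of either target.

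Taking the 5 siRNAs one by one, 0 of 40 tests of these 8 members against control were called, against 4.11% of such tests over all genes. Of the 40, 4 had an unadjusted p under 0.05, a looser threshold to which the 4.11% does not apply. The smallest was that of RCN1 with KMT2C siRNA1 (log2 -0.61, SE 0.16, edgeR adjusted p = 0.0652), which was called by DESeq2 (adjusted p = 0.0173). The difference of either target's effect between lines was not called for any of the 10 members (0 of 20 by edgeR), against 0% of all genes. Of these 20 tests, 0 had an unadjusted p under 0.05.

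**Figure D2:**
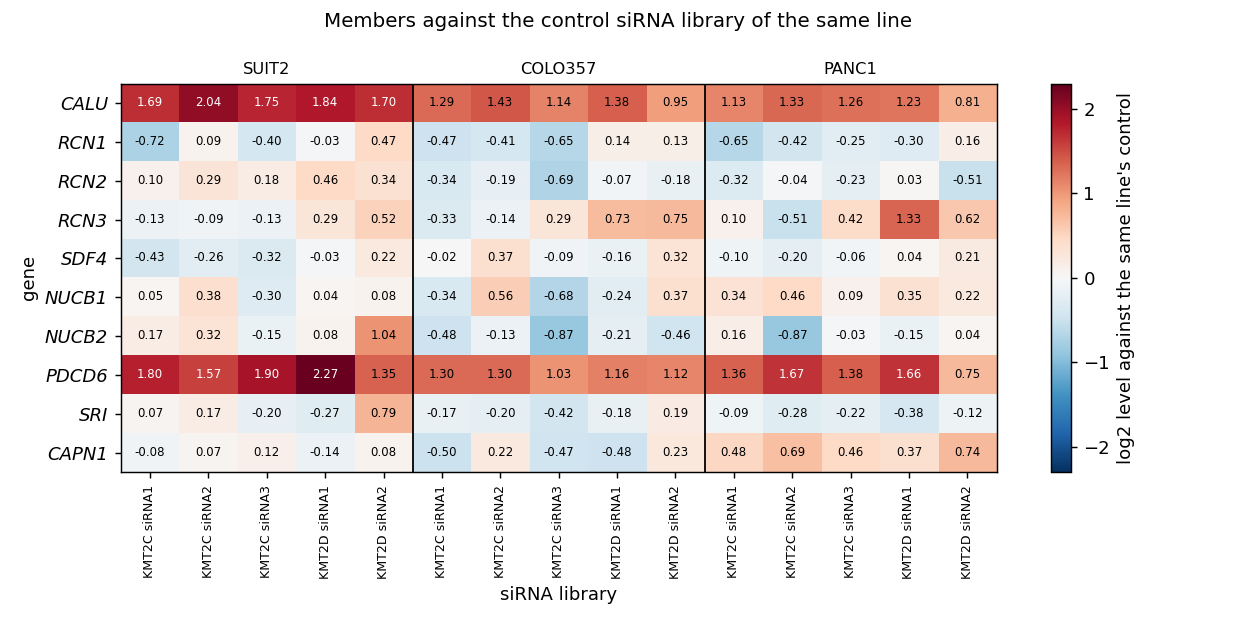
Log2 level of the 10 members (rows) in the 15 siRNA libraries (columns, by line) relative to their own line's control, computed with a prior count of 2. CALU and PDCD6 are above 0 in every column, from 0.81 to 2.04 and from 0.75 to 2.27, while each of the other rows holds both signs.

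KMT2C siRNA was set against KMT2D siRNA, a difference that is not taken against control. The control libraries were still part of the fit, through the filter, the scaling, the line terms and the estimate of spread. Of the 10 members 2 were called, RCN1 and RCN3, both lower with KMT2C siRNA, against 5.17% of all genes in either direction and 2.72% lower. By DESeq2 both were called as well. CALU (log2 0.13, 95% interval -0.11 to 0.36, edgeR adjusted p = 0.555) and PDCD6 (0.05, -0.26 to 0.36, adjusted p = 0.886) did not pass the threshold, and their intervals leave room for a difference of up to 0.36 on the log2 scale.

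RCN1 (ENSG00000049449, chromosome 11), the founding reticulocalbin of the ER lumen, stood at 119, 208 and 148 CPM with KMT2C siRNA1, siRNA2 and siRNA3 in SUIT2, against 192 and 270.5 CPM with KMT2D siRNA1 and siRNA2. In COLO357 it stood at 112, 117 and 98.6 CPM with KMT2C siRNA, against 171 and 169 CPM with KMT2D siRNA. In PANC1 it stood at 100.3, 117 and 132 CPM with KMT2C siRNA, against 127 and 175 CPM with KMT2D siRNA. The groups were apart in COLO357 and overlapped in SUIT2 and PANC1. The log2 difference was -0.52 (SE 0.13, 1.44-fold lower with KMT2C siRNA, edgeR adjusted p = 0.0211), and within lines it was -0.55 in SUIT2, -0.64 in COLO357 and -0.37 in PANC1, none of them called alone. Of all genes, 0.133%, 0.00476% and 0% were called within SUIT2, COLO357 and PANC1.

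The RCN1 value is uncertain because of a processed pseudogene, RCN1P2, whose counts made up 18.5% to 26.5% of the sum of both. RCN1P2 moved the same way, with a log2 difference of -0.60 (SE 0.13, edgeR adjusted p = 0.0141). How reads were split between the 2 copies was not tested. Against control siRNA (196, 155 and 157 CPM in SUIT2, COLO357 and PANC1), RCN1 was below in 8 of 9 KMT2C libraries and above in 4 of 6 KMT2D libraries.

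RCN3 (ENSG00000142552, chromosome 19), a reticulocalbin known from studies of collagen processing and lung, had few reads, 5 to 75 a library. In SUIT2 it stood at 2.07, 2.13 and 2.07 CPM with KMT2C siRNA1, siRNA2 and siRNA3, against 2.79 and 3.30 CPM with KMT2D siRNA1 and siRNA2. In COLO357 it stood at 0.280, 0.334 and 0.480 CPM with KMT2C siRNA, against 0.688 and 0.70 CPM with KMT2D siRNA. In PANC1 it stood at 1.07, 0.665 and 1.35 CPM with KMT2C siRNA, against 2.63 and 1.57 CPM with KMT2D siRNA. All KMT2C libraries lay below all KMT2D libraries in each of the 3 lines, a pattern found in 1.7% of genes (the reverse was found in 1.29%).

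The log2 difference of RCN3 was -0.81 (SE 0.21, 1.76-fold lower with KMT2C siRNA, edgeR adjusted p = 0.0268). Within lines it was -0.54 in SUIT2, -0.93 in COLO357 and -1.01 in PANC1, none of them called alone. With control siRNA RCN3 stood at 2.27, 0.377 and 0.988 CPM in the same lines, below the KMT2D libraries of each line, above the KMT2C libraries in SUIT2 and among them in COLO357 and PANC1. Both calls depended on which lines and siRNAs were included. RCN1 was still called without KMT2D siRNA1 (-0.68, adjusted p = 0.00558) and without KMT2C siRNA2 (-0.63, adjusted p = 0.0142), and RCN3 without KMT2D siRNA2 (-0.91, adjusted p = 0.0374). The call was lost for both when any 1 line, KMT2C siRNA1 or KMT2C siRNA3 was left out, for RCN1 without KMT2D siRNA2 (adjusted p = 0.136), for RCN3 without KMT2C siRNA2 (0.0659) or KMT2D siRNA1 (0.0738), and for both with the siRNA as a replicate block (adjusted p = 0.0897 for RCN1 and 0.152 for RCN3). Without the 3 libraries above 20% of read pairs in no feature, RCN1 was called (-0.58, adjusted p = 0.0402) and RCN3 was not (-0.90, adjusted p = 0.0677). That share averaged 17.2% with KMT2C siRNA and 11.1% with KMT2D siRNA.

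**Figure D3:**
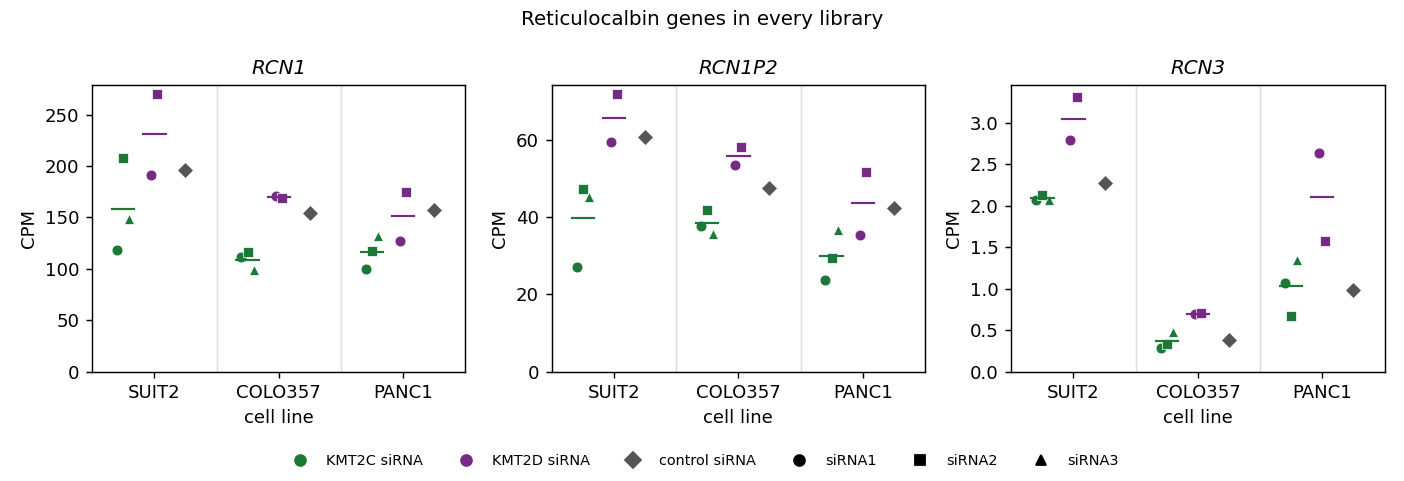
CPM of RCN1, its pseudogene RCN1P2 and RCN3 (y axes) in every library by cell line (x axes), with KMT2C siRNA, KMT2D siRNA and control siRNA from left to right. RCN3 with KMT2C siRNA, at 2.07 to 2.13 CPM in SUIT2 and lower in the other lines, is below RCN3 with KMT2D siRNA in each line.

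To set levels of different genes side by side, CPM were divided by exonic length (union of exons in GENCODE v29). On this scale, with 5 of 6 libraries of each line being the siRNA libraries on which CALU was chosen, its mean was the highest of the 10 members in each line, at 80.2 ± 27.9 CPM per kb in SUIT2, 85.5 ± 24.9 in COLO357 and 100.5 ± 28.2 in PANC1 (SD, n = 6 each, all siRNAs and control together). In COLO357 and PANC1 its range did not overlap that of the next gene, RCN1 (29.3 ± 6.79 CPM per kb) and SDF4 (32.8 ± 3.24 CPM per kb). In SUIT2 it overlapped RCN1, at 40.4 ± 11.2 CPM per kb. In the control libraries alone, an order added after the levels had been seen, CALU was first in COLO357 (39.8 CPM per kb, against 33.1 for RCN1) and PANC1 (49.4, against 33.6 for RCN1), but in place 3 in SUIT2, where it had 26.0 CPM per kb, against 41.9 for RCN1 and 33.2 for SDF4. RCN3 was last in each line, at 1.17 ± 0.24, 0.228 ± 0.0864 and 0.659 ± 0.329 CPM per kb in SUIT2, COLO357 and PANC1.

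Between these ends most neighbours overlapped, and the order depends on the length used. PDCD6 was in place 8 in SUIT2, 5 in COLO357 and 9 in PANC1 by its union of exons (9493 nt), and in place 2, 1 and 3 by its longest principal transcript (1135 nt), all over the 6 libraries of a line. In the control libraries alone, PDCD6 was by principal transcript in place 7 in SUIT2, 1 in COLO357 and 6 in PANC1. CALU was there in place 4 in SUIT2, 2 in COLO357 and 1 in PANC1, and RCN1 was first in SUIT2.

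Within the CREC family the make-up of the mRNA pool differed between the groups. CALU made up 59.3% ± 3.35 of the summed CPM per kb of CALU, RCN1, RCN2, RCN3 and SDF4 with KMT2C siRNA (n = 9), 51.1% ± 6.18 with KMT2D siRNA (n = 6) and 31.2% ± 7.55 with control siRNA (n = 3). The other 4 genes summed to 70.1 ± 8.56 CPM per kb with KMT2C siRNA, 89.3 ± 12.4 with KMT2D siRNA and 83.4 ± 3.72 with control siRNA. In SUIT2 the CALU share ran from 54.7% to 57.0% with KMT2C siRNA and from 42.8% to 50.6% with KMT2D siRNA, against 22.9% with control siRNA. In COLO357 it ran from 58.3% to 60.1% with KMT2C siRNA and from 46.9% to 56.1% with KMT2D siRNA, against 33.0% with control siRNA. In PANC1 it ran from 61.8% to 64.4% with KMT2C siRNA and from 49.99% to 59.9% with KMT2D siRNA, against 37.6% with control siRNA. The KMT2C range was above the KMT2D range in each line. This share is built from CALU, which was chosen for its level against control, and from RCN1, so it is given without a test.

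**Figure D4:**
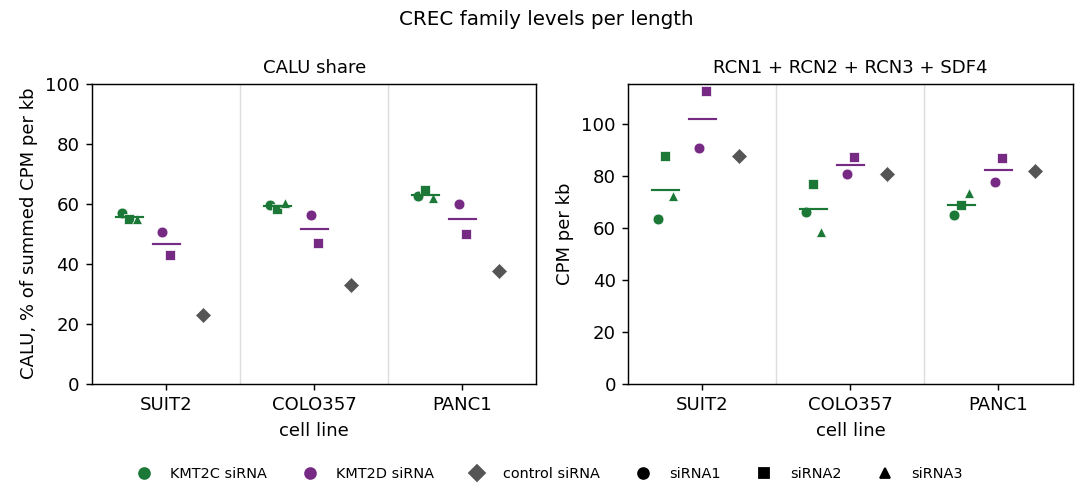
Left, CALU as a percentage of the summed CPM per kb of the 5 CREC genes (y axis). Right, the summed CPM per kb of the other 4 (y axis), both in every library by cell line (x axes), with KMT2C siRNA, KMT2D siRNA and control siRNA from left to right. Control shares of 22.9% to 37.6% are below those of every siRNA library, at 42.8% to 64.4%.

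The lines themselves differed in most members. Between SUIT2 and PANC1 6 of 10 members were called (59.3% of all genes), between SUIT2 and COLO357 7 of 10 (59.7%) and between COLO357 and PANC1 8 of 10 (66.8%), shares that are near or moderately above those of all genes. Each line stands for itself, since its libraries come from 1 line.

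RCN3 had the widest line difference, 5.20-fold higher in SUIT2 than in COLO357 (log2 2.38, SE 0.24, edgeR adjusted p = 1.9e-08). Its median was 2.20 CPM in SUIT2 (2.07 to 3.30), 0.428 CPM in COLO357 (0.280 to 0.70) and 1.21 CPM in PANC1 (0.665 to 2.63). NUCB2 had a median of 151 CPM in SUIT2 (125 to 284), 51.3 CPM in COLO357 (35.4 to 64.5) and 85.4 CPM in PANC1 (47.2 to 96.2). SUIT2 was above both other lines without overlap, by log2 1.72 against COLO357 (SE 0.19, adjusted p = 9.0e-08) and 1.07 against PANC1 (SE 0.19, adjusted p = 4.3e-05).

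PDCD6 was highest in COLO357, with a median of 255 CPM (116 to 285), against 113 CPM in SUIT2 (34.9 to 169) and 82.8 CPM in PANC1 (32.0 to 102). It was lower in SUIT2 than in COLO357 by log2 -1.20 (SE 0.17, edgeR adjusted p = 1.8e-06) and higher in COLO357 than in PANC1 by 1.68 (SE 0.17, adjusted p = 8.8e-09). CALU differed by less. It was lower in SUIT2 than in PANC1 (log2 -0.38, SE 0.13, adjusted p = 0.0126), and its differences between SUIT2 and COLO357 (-0.14, 95% interval -0.40 to 0.12) and between COLO357 and PANC1 (-0.24, -0.50 to 0.02) did not pass the threshold.

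Of the remaining members, RCN1 was higher in SUIT2 than in COLO357 (log2 0.47) and PANC1 (0.48), while RCN2, NUCB1 and CAPN1 were lower in SUIT2 than in COLO357 (-0.56, -0.79 and -0.56) and higher in COLO357 than in PANC1 (0.61, 0.46 and 0.51). SRI was lowest in PANC1, by 0.64 against SUIT2 and 0.85 against COLO357. SDF4 was called only between COLO357 and PANC1 (-0.37, adjusted p = 0.0116).

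**Figure D5:**
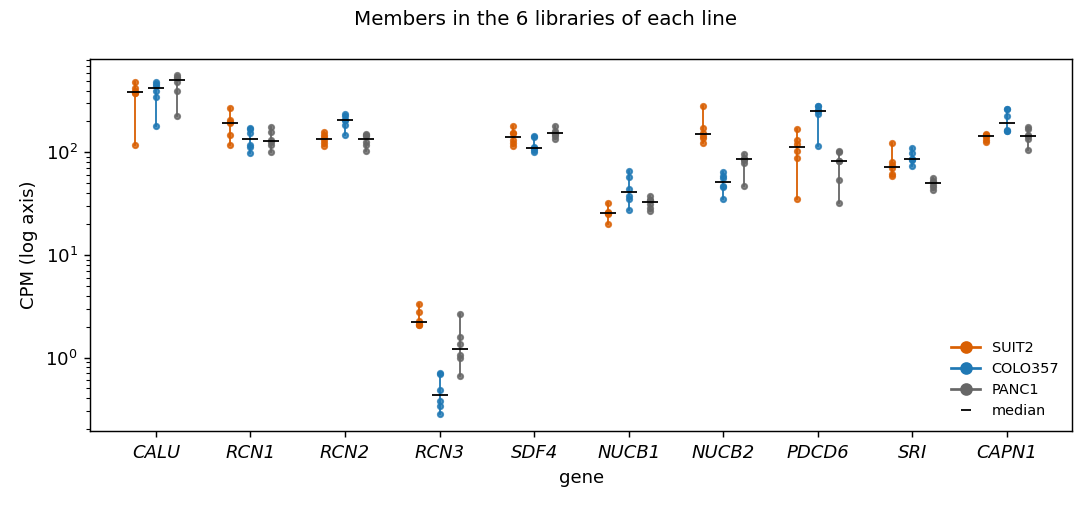
CPM (log y axis) of the 10 members (x axis) in the 6 libraries of SUIT2, COLO357 and PANC1, from left to right for each gene, with bars from lowest to highest and a tick at the median. Values are to be compared within a gene, since CPM are not scaled by length. NUCB2 in SUIT2 (125 to 284 CPM) lies above its values in the other lines.

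Genes whose levels followed CALU most closely were sought by the Pearson correlation of log2 CPM, centred within each line, over the 18 libraries and 12984 genes with a mean of at least 2 CPM. The 5 closest were SMAP1 (r = 0.95), PTPN1 (0.95), PDCD6 (0.93), YTHDF3 (0.93) and ZNF12 (0.92). For PDCD6 they were PTPN1 (0.96), CALU (0.93), MIEF1 (0.93), PPP2R1B (0.92) and TRUB2 (0.92). PTPN1, the phosphatase PTP1B on the cytosolic face of the ER, was on both lists, with 67.9 to 112 CPM in the siRNA libraries against 38.5 CPM with control siRNA in SUIT2, 53.9 to 74.9 against 35.6 CPM in COLO357 and 56.7 to 87.8 against 33.4 CPM in PANC1. The libraries share the step between control and siRNA on which CALU and PDCD6 were chosen, so these values only describe that step and carry no p. Of the other members, the r with CALU ran from -0.27 (RCN1) to 0.15 (NUCB1) and with PDCD6 from -0.40 (RCN1) to 0.14 (NUCB1). RCN3 fell under the 2 CPM minimum.

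Related lists, 4 in all, were read beside the members. Of 15 penta-EF-hand genes 13 passed the filter. PDCD6 was chosen on its level against control, so it is left out of the calls here. None of the others was called against control with either target. With PDCD6 included, the list's median log2 difference was 0.11 with KMT2C siRNA and 0.04 with KMT2D siRNA, against 0.00 and 0.02 for all genes. PEF1, the partner with which PDCD6 forms a heterodimer, stood higher under KMT2C than under KMT2D siRNA (log2 0.55, SE 0.14, edgeR adjusted p = 0.0231), at 43.4, 37.6 and 45.1 CPM with the KMT2C siRNAs and 23.3 and 29.7 CPM with the KMT2D siRNAs in SUIT2. The targets were also apart in PANC1 and overlapped in COLO357, at 34.7, 37.5 and 29.3 CPM with KMT2C siRNA, against 23.0 and 34.8 CPM with KMT2D siRNA. Against control, PEF1 had a log2 difference of 0.11 with KMT2C siRNA and -0.44 with KMT2D siRNA. Leaving out PDCD6, the smallest p in this list with KMT2C siRNA against control was that of CAPN14, a calpain. It was not called (edgeR adjusted p = 0.202). CAPN14 was nearly silent, at no more than 1.40 CPM with KMT2C siRNA, 0.473 CPM with KMT2D siRNA and 0.0471 CPM with control siRNA.

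Of 23 ER calcium-binding chaperones and folding enzymes 22 were tested, and 1 was called against control with each target, in both cases PDIA4, a protein disulfide isomerase. Of all genes, 0.281% were called against control with KMT2C siRNA and 1.2% with KMT2D siRNA. In SUIT2 PDIA4 stood at 539, 618 and 568 CPM with the KMT2C siRNAs and at 714 and 911 CPM with the KMT2D siRNAs, against 268 CPM with control siRNA. In COLO357 it stood at 390.2, 546 and 277 CPM with KMT2C siRNA and at 379 and 371 CPM with KMT2D siRNA, against 202 CPM with control siRNA. In PANC1 it stood at 589, 696 and 594 CPM with KMT2C siRNA and at 582 and 457 CPM with KMT2D siRNA, against 275 CPM with control siRNA. Every siRNA library was above its line's control. PDIA4 rose by a log2 difference of 1.10 with KMT2C siRNA (SE 0.19, edgeR adjusted p = 0.00808) and 1.15 with KMT2D siRNA (SE 0.20, adjusted p = 0.00417). The median of the list was -0.02 with KMT2C siRNA and 0.04 with KMT2D siRNA. FKBP10, a prolyl isomerase, came next with KMT2C siRNA (0.38, adjusted p = 0.456).

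Between the targets, 3 of these 22 genes were called. DNAJC10, an ER reductase, was higher with KMT2C siRNA (log2 0.46, adjusted p = 0.0439), and FKBP7 (-0.84, adjusted p = 0.0343) and the calmegin gene CLGN (-0.78, adjusted p = 0.0411) were lower. CLGN had 6.42 to 16.5 CPM with KMT2C siRNA and 13.0 to 26.1 CPM with KMT2D siRNA in COLO357 and PANC1, and under 3 CPM in SUIT2. FKBP7 was low throughout, at 0.699 to 9.32 CPM. Against control, none of these 3 was called. Their log2 differences with KMT2C and KMT2D siRNA were -0.12 and -0.58 for DNAJC10, 0.29 and 1.14 for FKBP7, and -0.45 and 0.33 for CLGN.

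Of 20 genes of ER and Golgi calcium transport 19 were tested and none was called against control, with list medians of 0.00 with KMT2C siRNA and -0.18 with KMT2D siRNA. The edgeR p was smallest with KMT2C siRNA for ATP2A3, a calcium pump (log2 0.82, adjusted p = 0.407), and STIM2, a sensor of ER calcium (0.41, adjusted p = 0.518). Between the targets 3 were called. ITPR3, an inositol trisphosphate receptor that releases calcium from the ER, was higher with KMT2C siRNA (log2 0.88, SE 0.15, edgeR adjusted p = 0.00317), at 189.9, 219 and 218 CPM in SUIT2, against 120.1 and 114 CPM with KMT2D siRNA. In COLO357 it stood at 376, 436 and 382 CPM with KMT2C siRNA, against 217 and 346 CPM with KMT2D siRNA, and in PANC1 at 279, 448 and 315 CPM, against 137 and 145 CPM, so that the targets did not overlap in any line. With control siRNA ITPR3 stood at 220, 341 and 184 CPM in SUIT2, COLO357 and PANC1. The calcium pump ATP2A2 (SERCA2) was also higher with KMT2C than with KMT2D siRNA (0.51, adjusted p = 0.0475). The ryanodine receptor gene RYR1, from a family that sorcin binds, was lower (-0.65, adjusted p = 0.0266). Against control, ITPR3 had log2 differences of 0.34 with KMT2C siRNA and -0.54 with KMT2D siRNA. Those of ATP2A2 were 0.05 and -0.46, and those of RYR1 were -0.05 and 0.60. For ATP2A2 the targets overlapped in SUIT2 and PANC1 and were apart in COLO357. For RYR1 they overlapped in COLO357, and in SUIT2 every library was under 1 CPM.

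All 18 known partners of the members were tested, none was called against control, and their medians were 0.03 with KMT2C siRNA and -0.03 with KMT2D siRNA. The smallest p with KMT2C siRNA belonged to VPS37C, a subunit of ESCRT-I (log2 0.32, adjusted p = 0.581), and PDCD6IP, which encodes ALIX (0.21, adjusted p = 0.688). Between the targets, PEF1 was higher and SEC31A, the COPII coat subunit that PDCD6 binds, was lower with KMT2C siRNA (-0.63, SE 0.16, edgeR adjusted p = 0.0293). Against control, SEC31A had a log2 difference of -0.13 with KMT2C siRNA and 0.50 with KMT2D siRNA. SEC31A stood at 156, 164 and 89.9 CPM with KMT2C siRNA in SUIT2, against 153 and 300.3 CPM with KMT2D siRNA, so that in this line the targets overlapped. They were apart in COLO357, at 179, 155 and 139 CPM with KMT2C siRNA, against 185 and 231 CPM with KMT2D siRNA. They were also apart in PANC1, at 117, 114.5 and 68.4 CPM, against 149 and 190 CPM. Beside the calls of these lists, 5.17% of all genes were called between targets. Against control, 0.281% were called with KMT2C siRNA and 1.2% with KMT2D siRNA.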

How the data were processed

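The labels name 18 RNA-seq libraries from 3 cell lines, made by ribosomal depletion with a stranded total RNA kit and read in pairs, and the deposited values are raw read-pair counts per Ensembl gene, 1 table a library. Per the submitters' processing notes, FastQC, TopHat2, HTSeq and edgeR were used with hg19. No source used here gives the annotation release, overlap mode or strand setting, so overlapping, antisense and near-identical genes may share reads. Entries that name no gene, 33.0% to 53.4% of read pairs, were left out of library sizes and tests. Samples were randomised into pools before sequencing, and the labels do not tie libraries to pools, so no batch could be entered.

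Symbols and lengths were matched by identifier to GENCODE v29 (52526 of 63677). Counts were tested with edgeR 4.0.16 (R 4.3.3, quasi-likelihood, robust, TMM factors 0.946 to 1.06), after a filter by expression (minimum count 10, minimum total 15) that kept 21028 genes, with line and target as additive factors (biological coefficient of variation 0.239, 13 residual degrees of freedom). A second fit held a level for each siRNA (0.183, 10 degrees of freedom) and another 9 groups of line by target, which assumes that a lone control library varies like the other groups. A gene was called at a Benjamini-Hochberg adjusted p under 0.05 over all genes tested. CPM use TMM-scaled library sizes, and library log2 values a prior count of 2. SE is the log2 difference over the square root of F, and intervals are 95%. The fits were tested on simulated data. DESeq2 1.42.0 and limma 3.58.1 served as alternatives. Over the 12 pairs of libraries with the same line and target, which differ in siRNA, no 2 held identical counts, and chi-square per degree of freedom was at least 23.9.

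The members, lists and tests were chosen with earlier results of these data known. By rule, all 10 members are named, with the genes of each list that were called, the 2 with the smallest p in KMT2C siRNA against control siRNA, and the 5 closest to CALU and to PDCD6. One listed gene, ORAI1, was not matched.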

Additional observations from a re-analysis of the deposited data

Results flagged for a closer look

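NUCB2 in the SUIT2 KMT2D siRNA2 library stood apart from the other 5 KMT2D libraries, with a log2 level of 1.04 against the same line's control. Among the 6 KMT2D libraries its gap to the nearest, divided by their whole range, was above Dixon's critical value. 20 such groups, the 10 members by 2 targets, were tested, and chance marks about 1 in 20. The level was 284 CPM in this library, against 138 CPM with control siRNA in SUIT2. No other library of a member was marked.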

How the results depend on the processing

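Over 18 alternatives, the log2 difference of CALU ranged from 1.25 to 1.56 with KMT2C siRNA and from 1.11 to 1.47 with KMT2D siRNA, and that of PDCD6 from 1.31 to 1.62 and from 1.08 to 1.70. The counts of calls against control by target (0 of 8 each), between lines (6, 7 and 8 of 10) and for the difference of effects between lines (0 of 20) stayed within 1.5 times under every alternative run.

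For KMT2C against KMT2D siRNA (2 of 10), the count was 0 with the siRNA as a replicate block, 0 without the PANC1 line, 0 without the COLO357 line, 0 without the SUIT2 line, 1 without the 3 libraries with most read pairs in no feature, and 0 to 2 when 1 siRNA or control library was left out. RCN1 was called in 11 and RCN3 in 9 of the 18 alternatives, with adjusted p from 0.00325 to 0.191 and from 0.00715 to 0.18. SRI passed the threshold only without KMT2D siRNA1 (log2 -0.47, adjusted p = 0.0406). For each siRNA against control (0 of 40), the count was 1 without a filter on low counts, 1 with DESeq2 and 0 to 1 with 1 siRNA or control left out, each time RCN1 with KMT2C siRNA1. Between siRNAs of one target (3 of 40), it was 1 without the PANC1 line, 0 without the SUIT2 line, and 1 to 3 with 1 siRNA or control left out, where a siRNA that is left out cannot be compared. The cause of these shifts was not tested, beyond the smaller number of libraries. The fit by siRNA has no replicate block, since the siRNA is its term. Of 540 values of single members, 521 were labelled the same, 16 lost a call, 1 gained one, 2 moved and 0 reversed. A called value was the same if it kept its call and direction, which only RCN1 (11) and RCN3 (9) did. The rest of the 521 were called in neither fit or, for CALU and PDCD6 against control, not tested. They were the same if they shifted by less than an SD, and moved if by more. That SD was of the member's log2 levels against control over the 15 siRNA libraries. A change of sign in a value that was called in neither fit was not counted as reversed. Such changes occurred, for CAPN1 between the targets in 5 of 18 alternatives and for NUCB1 in 4. With KMT2C siRNA against control, RCN3 changed sign in 4 of 18. Depth limits RCN3 most, with 5 to 75 reads a library.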
